A study of Mus musculus with 6 samples.

Results

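The 10 genes described here carry the WNT, R-spondin and hedgehog signals that pass between the capsule and the cortex of the adrenal gland. They were taken by name, with earlier results of these data known. All 10 were found among the 30406 genes that the annotations of the 6 libraries share. They are the ligands Rspo3, Wnt4 and Shh, the receptors Lgr5 and Ptch1, the membrane ligase Znrf3, the decoy receptor Hhip, the transcription factors Lef1 and Gli1 and the feedback gene Axin2. Another 96 genes of the same pathways were read beside them.

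The libraries hold nuclei of whole adrenal glands from female C57BL/6 J mice aged 10 to 11 months, 1 pair of glands per library, stained with DAPI, sorted and sequenced by a droplet method that reads the 3' end of each RNA and counts it once by a unique molecular identifier (UMI). The KO group, knocked out for Tmem127, has 2 libraries and the WT group has 3. Tmem127 encodes a membrane protein of endosomes and lysosomes that suppresses phaeochromocytoma, the tumour of the adrenal medulla. Which part of Tmem127 the KO allele lacks, and in which cells, is not given in the labels. The labels of a sixth library disagree, WT by title and KO by genotype; it is called unassigned here and enters no comparison. In it Lgr5 and Hhip lay above every WT library, and Wnt4, Shh, Axin2 and Ptch1 below all 5 others, in at least 1 class each, as given with each gene. The libraries had 2886 to 4653 barcodes and 4825169 to 43377724 UMIs, with a median per barcode between 1289 in KO replicate 2 and 7675 in WT replicate 1. Of 21646 distinct barcodes, 72 occurred in more than 1 library. Tmem127 itself stood at 45.9 and 45.2 CPM (UMIs of a gene scaled to a common total of all UMIs in the same nuclei and library) in KO and 38, 38.1 and 36.2 in WT over all nuclei, and at 36.3 in the unassigned library, which checks no label while the deleted part is unknown. Nothing in the labels says that the libraries of a group came from separate litters or days, so p-values measure the spread between these libraries.

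WNT ligands bind Frizzled and LRP receptors and stabilise beta-catenin, which acts on genes through the TCF and LEF factors. R-spondins raise this signal by binding LGR receptors and removing the ligases ZNRF3 and RNF43, which otherwise clear Frizzled from the membrane. In the hedgehog pathway a ligand such as Shh binds PTCH1, this frees Smoothened, and the GLI factors then switch on targets that include Gli1, Ptch1 and Hhip themselves. In the adrenal gland the capsule is known as the source of Rspo3, the zona glomerulosa below it as the source of Wnt4 and Shh, and Gli1 as a mark of capsular cells that receive Shh.

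Of the 10 genes, 5 have a promoter window in the RefSeq table used (GRCm38.p6), namely Wnt4, Axin2, Lef1, Ptch1 and Hhip. The 250 bases before each listed start were searched on both strands for CTTTGA and CTTTGT, the core letters bound by TCF and LEF factors, and for CCACCCA and GACCACCCA, letters of the GLI site, of which the longer holds the shorter. Among 32851 windows of that length, 13.8% hold CTTTGA, 16.5% CTTTGT, 8.11% CCACCCA and 0.225% GACCACCCA. Of the 8 windows of these genes 1 had a match, a start inside the Lef1 gene, with CTTTGA 2 times and CTTTGT 1 time, all 3 on the reverse strand and so written here as TCAAAG and ACAAAG. The windows of Axin2, the readout of WNT signalling, and of Ptch1 and Hhip, the hedgehog targets, are shown beside it because the levels of these genes carry the comparison of capsule and cortex given further on; none of the searched letters is in them. All 4 windows lie outside annotated exons, and capitals mark the matches. Like that of Lef1, the Ptch1 window lies inside the annotated gene, so the bases before the outermost start of Ptch1 were not searched.
Lef1, chr3:131156044-131156293, plus strand: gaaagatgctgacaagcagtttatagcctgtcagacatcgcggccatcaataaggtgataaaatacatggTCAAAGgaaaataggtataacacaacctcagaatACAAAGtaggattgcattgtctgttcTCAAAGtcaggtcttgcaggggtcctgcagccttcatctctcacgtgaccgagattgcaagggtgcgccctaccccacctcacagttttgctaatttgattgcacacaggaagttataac
Axin2, chr11:108920099-108920348, plus strand: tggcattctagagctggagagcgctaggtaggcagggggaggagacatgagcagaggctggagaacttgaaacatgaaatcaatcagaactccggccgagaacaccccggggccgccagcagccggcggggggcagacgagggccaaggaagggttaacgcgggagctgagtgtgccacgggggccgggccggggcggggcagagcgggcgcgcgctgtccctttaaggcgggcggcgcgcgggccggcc
Ptch1, chr13:63565736-63565985, minus strand: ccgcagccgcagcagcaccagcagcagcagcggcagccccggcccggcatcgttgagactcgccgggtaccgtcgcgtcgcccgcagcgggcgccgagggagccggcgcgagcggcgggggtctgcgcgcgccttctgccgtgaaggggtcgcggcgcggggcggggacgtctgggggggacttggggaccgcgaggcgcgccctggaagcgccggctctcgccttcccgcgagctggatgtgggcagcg
Hhip, chr8:80058009-80058258, minus strand: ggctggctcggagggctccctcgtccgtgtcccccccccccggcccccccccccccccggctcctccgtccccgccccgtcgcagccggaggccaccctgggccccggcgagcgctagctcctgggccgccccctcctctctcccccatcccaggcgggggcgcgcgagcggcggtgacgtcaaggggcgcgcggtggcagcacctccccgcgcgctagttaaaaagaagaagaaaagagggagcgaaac

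Nuclei were grouped into 24 clusters from genes other than these 106, so that the clusters do not rest on the levels described. Clusters were named from marker lists. The zona glomerulosa-like class (3337 nuclei, 9 of 9 markers passed, led by Vsnl1, Agtr1b and Cyp11b2) and the zona fasciculata-like class (2629 nuclei, 4 of 7 markers, led by Dab1 and Abcb1b) are 1 cluster each. Cluster 3 (2095 nuclei, led by Cthrc1 and Oca2) took no name. The data hold no positions, so where it lies among the zones is not known. An inner cortex or X-zone-like class held 1386 nuclei, and 3 of its 6 markers passed. The capsule or fibroblast-like class joined 4 clusters. Its cluster 9 (832 nuclei, led by Luzp2, Rspo3 and Ntng1) passed 9 of 12 markers and is called the Luzp2 cluster, and its cluster 5 (1380 nuclei, led by Fbn2, Prdm6 and Gata4) passed 6 of 12 and is called the Gata4 cluster. None of the 12 markers was among the 10 leading genes of either, so the names rest on the list as a whole. The makeup of the class differed between libraries: nuclei of the Luzp2 cluster made up 33.8% and 20.5% of the class for KO, 48.8%, 32.5% and 29.3% for WT and 30.2% for the unassigned library, and for that reason the clusters were read singly.

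**Figure D1:**
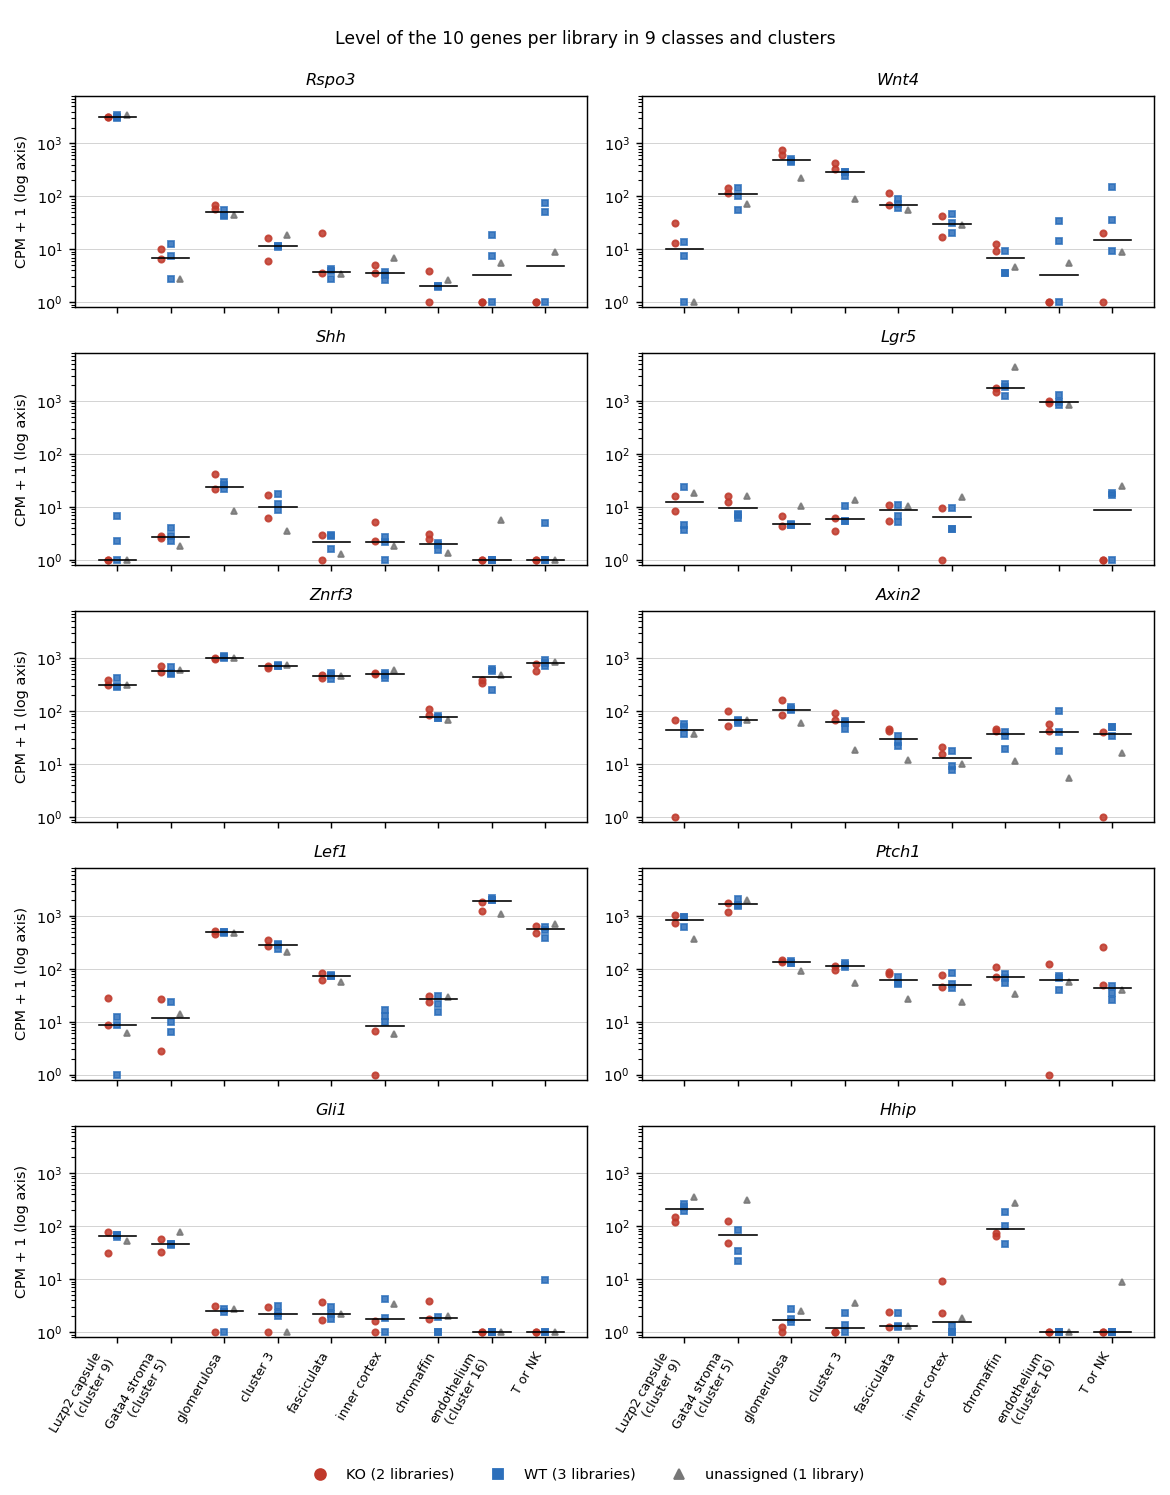
Level of the 10 genes (CPM + 1, log axis) in 9 classes and clusters, ordered from the capsule to the medulla, vessels and lymphocytes. Each symbol is 1 library and the black line is the median of 6: Rspo3 stands high in the Luzp2 cluster, Gli1 and Ptch1 in the Luzp2 and Gata4 clusters, Wnt4, Shh, Znrf3 and Axin2 in the zona glomerulosa-like class, and Lgr5 in chromaffin-like nuclei and 1 endothelial cluster.

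Rspo3, the R-spondin ligand, had 1 main source. In the Luzp2 cluster it stood at 3217 and 3155 CPM in KO, 3398, 3202 and 2987 CPM in WT and 3495 CPM in the unassigned library. The groups overlapped, and the 6 libraries lay within a narrow band. This cluster gave 83.1% of all 10344 Rspo3 UMIs (75.8% to 87.4% by library), and 589 of its 708 nuclei (83.2%; 75.5% to 88.6% by library) held an Rspo3 UMI after each nucleus was thinned to 1000 UMIs. In the neighbouring Gata4 cluster the level was 1.69 to 11.8 CPM, although both clusters passed the same marker list.

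Rspo3 was also counted in the zona glomerulosa-like class, the layer next to the capsule. Its level there was 66.4 and 56.6 CPM in KO, 43.2, 41.0 and 54.4 CPM in WT and 42.6 CPM in the unassigned library. Both KO libraries lay above all 3 WT libraries, the closest pair being 56.6 and 54.4 CPM. Thinned nuclei with an Rspo3 UMI made up 4.47% of this class (median of 6 libraries), against 0.57% in zona fasciculata-like nuclei and at most 0.76% in chromaffin-like nuclei. The median depth of a nucleus before thinning ran over the libraries from 1788 to 11048 UMIs in the zona glomerulosa-like class and from 2308.5 to 14902 in the chromaffin-like class. In bulk sums of a class, fewer nuclei with Rspo3 and less Rspo3 in each cannot be told apart. Markers of capsule or fibroblasts summed to 129 to 185 CPM in zona glomerulosa-like nuclei, 72.1 to 120 CPM in zona fasciculata-like and 23.4 to 69.1 CPM in chromaffin-like nuclei, and their part in the Rspo3 counts of the cortex was not tested. Pericyte or smooth muscle-like nuclei held 142 Rspo3 UMIs, at 193 and 95.2 CPM in KO and 67.5, 45.1 and 24.6 CPM in WT.

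Wnt4, the WNT ligand of the outer cortex, fell over the named zones inwards. In zona glomerulosa-like nuclei it stood at 751 and 597 CPM in KO, 450, 504 and 457 CPM in WT and 224 CPM in the unassigned library. Both KO libraries lay above every WT library, and the unassigned library was below all 5. Cluster 3 had 421 and 333 CPM in KO, 283, 294 and 237 CPM in WT and 89.1 CPM in the unassigned library, in the same order of groups. Zona fasciculata-like nuclei had 54.4 to 114 CPM and the inner cortex or X-zone-like class 16.2 to 44.7 CPM, and these ranges did not overlap. Cluster 3 overlapped the zona fasciculata-like range through the unassigned library (89.1 CPM) only. Across libraries it also overlapped the zona glomerulosa-like class. Within each library the zona glomerulosa-like level was higher than that of cluster 3. The cortical zones were not the only source: the Gata4 cluster held 55.3 to 146 CPM, which overlapped the zona fasciculata-like range, and the Luzp2 cluster at most 30.5 CPM.

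Shh, the hedgehog ligand, was sparse and cortical. Its 861 UMIs came to 69.7% from zona glomerulosa-like nuclei and to 20.1% from cluster 3. In the former the level was 41.2 and 20.4 CPM in KO, 28.4, 24.6 and 21.1 CPM in WT and 7.31 CPM in the unassigned library. The KO libraries lay on either side of all WT libraries, and the unassigned library was lowest. Cluster 3 had 2.52 to 16.6 CPM, and zona fasciculata-like nuclei at most 1.96 CPM. After thinning, 72 of 3258 zona glomerulosa-like nuclei held a Shh UMI (2.21%); the median of the 6 library shares was 1.59% (0.54% to 5.11%), and before thinning it was 10.1%. The highest share in chromaffin-like nuclei, at similar depths, was 0.47% after thinning.

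Turning to receivers, Znrf3, the ligase that R-spondins remove, was spread over all cortical zones. In zona glomerulosa-like nuclei it stood at 953 and 1009 CPM in KO, 1002, 1055 and 1100 CPM in WT and 1037 CPM in the unassigned library. The groups overlapped, and among the 6 libraries only a handful of hepatocyte-like nuclei in WT replicate 3 (1140 CPM) reached this range in another class. Cluster 3 had 648 to 760 CPM, zona fasciculata-like nuclei 404 to 522 CPM and the inner cortex or X-zone-like class 429 to 594 CPM, the last 2 of which overlapped. T or NK cell-like nuclei had 565 to 929 CPM, and chromaffin-like nuclei at most 108 CPM.

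Lgr5, an R-spondin receptor known as a stem cell marker of the gut, was hardly counted between capsule and cortex. Its level was at most 22.4 CPM in the Luzp2 cluster, 9.26 CPM in zona glomerulosa-like nuclei and 9.83 CPM in zona fasciculata-like nuclei. Chromaffin-like nuclei gave 95.1% of its 30678 UMIs. They stood at 1470 and 1733 CPM in KO, 1238, 2131 and 1815 CPM in WT and 4436 CPM in the unassigned library. The KO libraries lay within the WT range, and the unassigned library was above all 5. Both chromaffin-like clusters, 7 (led by Slc6a4 and Olfm3) and 12 (led by Lrrtm4, Dach2 and Lix1), took part, with medians of 1757 and 1723 CPM. Another site was cluster 16, an endothelium-like cluster led by Scin, Tspan8, Prom1 and Bmx, with 842 to 1290 CPM in its 271 nuclei; in the endothelium-like class as a whole the level was 47.4 to 113 CPM. The hepatocyte-like cluster held 117 Lgr5 UMIs, 116 of them in KO replicate 1, which supplied 46 of its 53 nuclei.

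Lgr4, another receptor of R-spondins, was counted in every cortical zone. It stood at a median of 555 CPM (489 to 742) in zona glomerulosa-like nuclei, 679 CPM (446 to 1306) in zona fasciculata-like and 1095 CPM (871 to 1721) in inner cortex or X-zone-like nuclei, against 166 CPM (134 to 178) in the Luzp2 cluster. Between the first pair of zones the libraries overlapped; the inner cortex lay above the zona glomerulosa in all 6.

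Axin2, a feedback gene that beta-catenin switches on, was highest in the zona glomerulosa-like class. It stood there at 160 and 82.6 CPM in KO, 122, 105 and 107 CPM in WT and 59.0 CPM in the unassigned library. The KO libraries lay on either side of all WT libraries. The median was 106 CPM there, 61.2 CPM in cluster 3, 29.0 CPM in zona fasciculata-like nuclei and 11.9 CPM in the inner cortex or X-zone-like class. Each of these overlapped the next in this list, which is an order of medians and not of measured positions. The Gata4 cluster held 66.7 CPM (51.7 to 98.7), which overlapped the zona glomerulosa-like class. Nkd1, another feedback gene of the pathway, had a median of 295 CPM (279 to 429) in the zona glomerulosa-like class, 94.5 CPM in cluster 3, 17.8 CPM (11.2 to 30.5) in zona fasciculata-like nuclei and 225 CPM (164 to 288) in the Gata4 cluster.

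Lef1, the nuclear partner of beta-catenin whose internal window is printed above, differed between the zones. In zona glomerulosa-like nuclei it stood at 517 and 460 CPM in KO, 491, 480 and 505 CPM in WT and 464 CPM in the unassigned library. The groups overlapped. Cluster 3 had 203 to 346 CPM, zona fasciculata-like nuclei 54.4 to 80.7 CPM and the inner cortex or X-zone-like class at most 15.7 CPM, and none of these ranges overlapped. The highest level was in the endothelium-like cluster 16, at 1817 and 1231 CPM in KO, 2219, 2027 and 2003 CPM in WT and 1097 CPM in the unassigned library. There both KO libraries and the unassigned library lay below every WT library. T or NK cell-like nuclei, in which Lef1 is a known regulator, had 376 to 696 CPM.

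Ptch1, the hedgehog receptor and a GLI target, was highest in the stroma. The Gata4 cluster stood at 1207 and 1780 CPM in KO, 1565, 2100 and 1580 CPM in WT and 1998 CPM in the unassigned library. The groups overlapped. In the Luzp2 cluster the level was 738 and 1021 CPM in KO, 942, 941 and 615 CPM in WT and 360 CPM in the unassigned library, again with overlap, and the unassigned library was lowest. The ranges of the 2 clusters did not overlap. Zona glomerulosa-like nuclei, next to the capsule, had 133 and 148 CPM in KO, 130, 128 and 140 CPM in WT and 90.9 CPM in the unassigned library. Zona fasciculata-like nuclei had 25.7 to 85.7 CPM, below the zona glomerulosa-like class in every library.

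Gli1, the hedgehog-driven transcription factor, had 566 UMIs, of which 76.5% were in the capsule or fibroblast-like class. The Luzp2 cluster stood at 75.5 and 30.5 CPM in KO, 67.3, 67.2 and 61.0 CPM in WT and 50.7 CPM in the unassigned library; the value of KO replicate 2 rests on 4 UMIs, with an exact 95% Poisson interval of 8.31 to 78.1 CPM that spans all the others. The Gata4 cluster had 56.2 and 31.4 CPM in KO, 45.9, 44.1 and 44.6 CPM in WT and 77.1 CPM in the unassigned library. In both clusters the KO libraries lay on either side of the WT libraries, and the 2 clusters overlapped. Zona glomerulosa-like nuclei, which hold the ligand, had at most 2.14 CPM.

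Hhip binds hedgehog ligands and holds them back. In the Luzp2 cluster it stood at 149 and 122 CPM in KO, 228, 196 and 260 CPM in WT and 350 CPM in the unassigned library. Both KO libraries were below all 3 WT libraries. In the Gata4 cluster it stood at 47.1 and 124 CPM in KO, 33.2, 20.6 and 84.7 CPM in WT and 306 CPM in the unassigned library. There the KO and WT libraries overlapped, and the unassigned library was above all 5. Outside the stroma Hhip was in chromaffin-like cluster 7, with 97.6 and 103 CPM in KO, 78.5, 143 and 248 CPM in WT and 375 CPM in the unassigned library, while the other chromaffin-like cluster had at most 21.4 CPM. Zona glomerulosa-like nuclei had at most 1.74 CPM. The Gata4 cluster also holds summed mesothelial markers at 213 to 454 CPM, against 70.6 to 151 CPM in the Luzp2 cluster. That marker list includes Wt1, and Wt1os is among the leading genes of the Gata4 cluster itself. The part of Wt1 in the sum was not tested. Mesothelium-like nuclei themselves held 0 Hhip UMIs in each KO and WT library, among 8396 to 55963 UMIs of all genes. In the unassigned library they held 1 (4.33 CPM). The part of mesothelial RNA in the Hhip counts of the Gata4 cluster was not tested.

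Pairs of the genes were also read within single nuclei thinned to 1000 UMIs. In the Luzp2 cluster 82.5% of 263 nuclei with a Ptch1 UMI also had Rspo3, against 83.6% of the 445 without. Of 39 nuclei with a Gli1 UMI there, 92.3% had Rspo3, against 82.7% of the 669 without, but the share was lower among Gli1-positive nuclei in both KO libraries, with 6 of 7 and 0 of 1 nuclei. Of 77 nuclei with an Hhip UMI, 59.7% had Ptch1, against 34.4% of the 631 without, and the share was higher among Hhip-positive nuclei in each of the 6 libraries. In the Gata4 cluster 89.1% of 55 Hhip-positive nuclei had Ptch1, against 60.9% of 1098. In the zona glomerulosa-like class 44.4% of 72 Shh-positive nuclei had Wnt4, against 38.1% of 3186, but in 3 of the 6 libraries (WT replicates 1 and 3 and the unassigned library) the share was lower among Shh-positive nuclei, and KO replicate 1 held 28 of the 72. Nuclei of 1 library are not replicates, and these shares are descriptions with no test.

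KO was set against WT over summed counts per library, with a fit across all genes of each class or cluster and a term for the Cell Ranger version of the file, which divides the libraries into 4.0.0 (KO replicate 1 and WT replicate 1) and 3.1.0 (the other libraries). The test was edgeR's quasi-likelihood test, two-sided, with Benjamini-Hochberg adjustment over all genes and a threshold of 0.05. In none of 20 classes and clusters, nor in all nuclei together, did any of the 10 genes pass. In the zona glomerulosa-like class 8 of the 10 had enough counts to be tested and 0 passed, where 33 of 11530 genes passed (0.286%). In the capsule or fibroblast-like class 9 were tested and 0 passed, where 3 of 10366 genes passed (0.0289%). In the Luzp2 cluster 6 were tested, and 0 of 6730 genes passed (0%), with 280 at an unadjusted p under 0.05. In the zona fasciculata-like class 7 were tested, and 0 of 11573 genes passed (0%), with 241 at an unadjusted p under 0.05 and 5 called by DESeq2. The Gata4 cluster (7 tested) had 1 of 8266 (0.0121%). Cluster 3 had 8 tested and 0 passed (background 0.00916%), the T or NK cell-like class 2 tested and 0 passed (0.629%), and the macrophage-like class 2 tested and 0 passed (0.0143%). All 10 were tested in all nuclei, where 0 of 16585 genes passed (0%), with 1149 at an unadjusted p under 0.05 and 57 called by DESeq2. Of 112 tests of a gene in a class, cluster or all nuclei, 15 had an unadjusted p under 0.05 (13.4%), where 5.03% of the 172438 tests of all genes in the same classes and clusters did; none of the 15 passed after adjustment, and classes share nuclei with their clusters. DESeq2 called none of the 10 either.

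**Figure D2:**
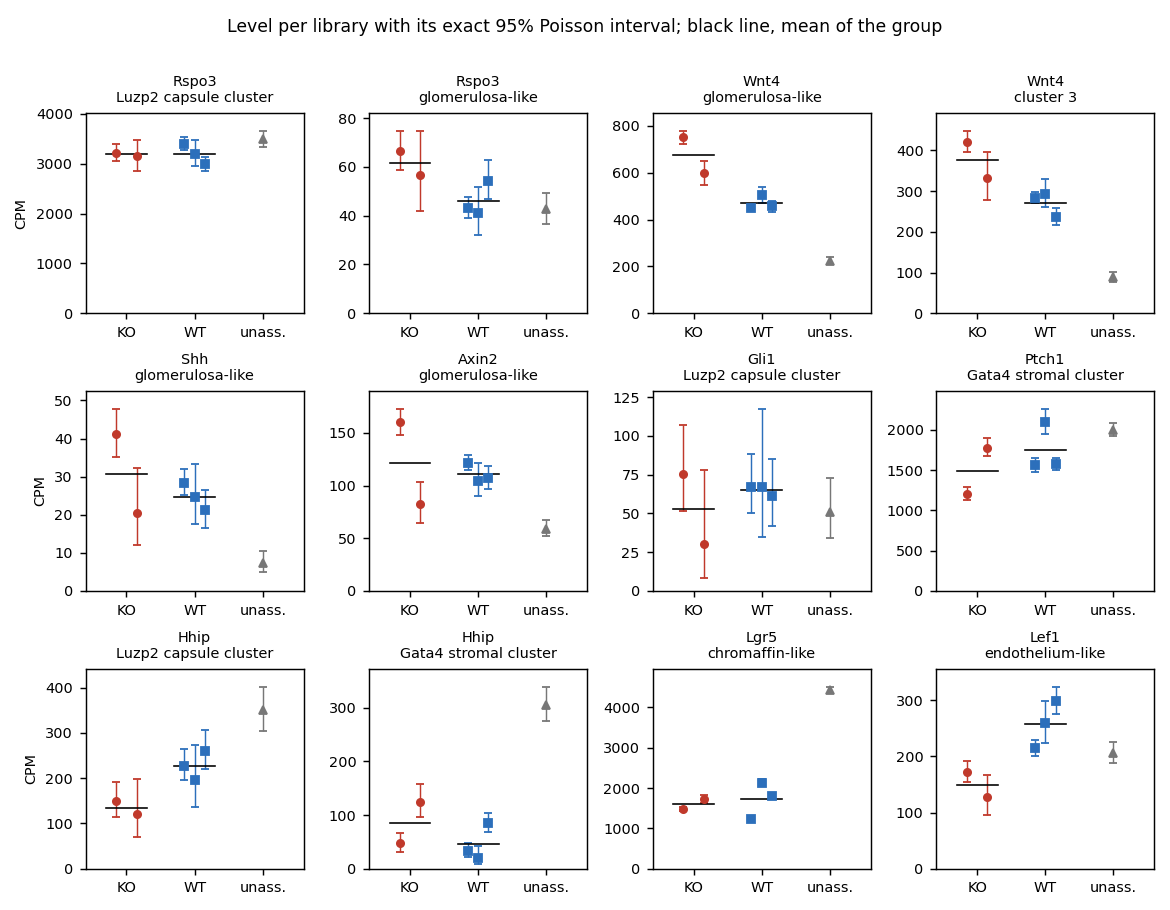
Level (CPM) in each library for 12 pairs of gene and class or cluster, with exact 95% Poisson intervals of the counts as bars and the group mean as a black line. Wnt4 in zona glomerulosa-like nuclei is higher in both KO libraries (751 and 597) than in the WT libraries (450 to 504), Hhip in the Luzp2 cluster is lower (149 and 122 against 196 to 260), and the unassigned library stands apart for Wnt4, Shh, Hhip and Lgr5.

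Wnt4 in zona glomerulosa-like nuclei had a log2 fold (KO against WT) of 0.50 ± 0.13 (SE) by edgeR, with an unadjusted p of 0.0029 and an adjusted p of 0.225. It did not pass. The SE is the size of the fold over the square root of the test's F statistic. The fold comes from the fit with its Cell Ranger term, not from the plain group means. These means were 674 ± 109 CPM (SD, n = 2) in KO and 470 ± 29.8 CPM (SD, n = 3) in WT. Within files of Cell Ranger 4.0.0 the levels were 751 against 450 CPM, and within those of 3.1.0 597 against 504 and 457 CPM. In cluster 3 the fold was 0.45 ± 0.17 (adjusted p = 0.962, edgeR). With the unassigned library taken as KO the fold was 0.09, and taken as WT it was 0.64. Gm42418, a transcript that overlaps ribosomal RNA sequence, moved with the group in the same nuclei, at 15010 and 11501 CPM in KO and 5611, 6996 and 3546 CPM in WT; its part in the result was not tested.

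Rspo3 depended on which nuclei were summed. Over the capsule or fibroblast-like class its log2 fold was -0.64 ± 0.16 (unadjusted p = 0.0016, adjusted p = 0.282, edgeR). The levels there were 1056 and 539 CPM in KO and 1474, 961 and 818 CPM in WT. In the Luzp2 cluster, which holds 8595 of its 8639 UMIs in the class, the fold was -0.01 ± 0.18 (adjusted p = 0.999). The share of the Luzp2 cluster in the class is given above, and the Gata4 cluster made up 44.8% and 66.0% of the class for KO and between 32.9% and 50.4% for WT. With no filter on low counts the fold over the class passed (-0.67, adjusted p = 0.0275). In zona glomerulosa-like nuclei Rspo3 had a fold of 0.43 ± 0.19 (unadjusted p = 0.042, adjusted p = 0.410, edgeR). In pericyte or smooth muscle-like nuclei it had 1.53 ± 0.41 (unadjusted p = 0.0015, adjusted p = 0.855, edgeR).

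**Figure D3:**
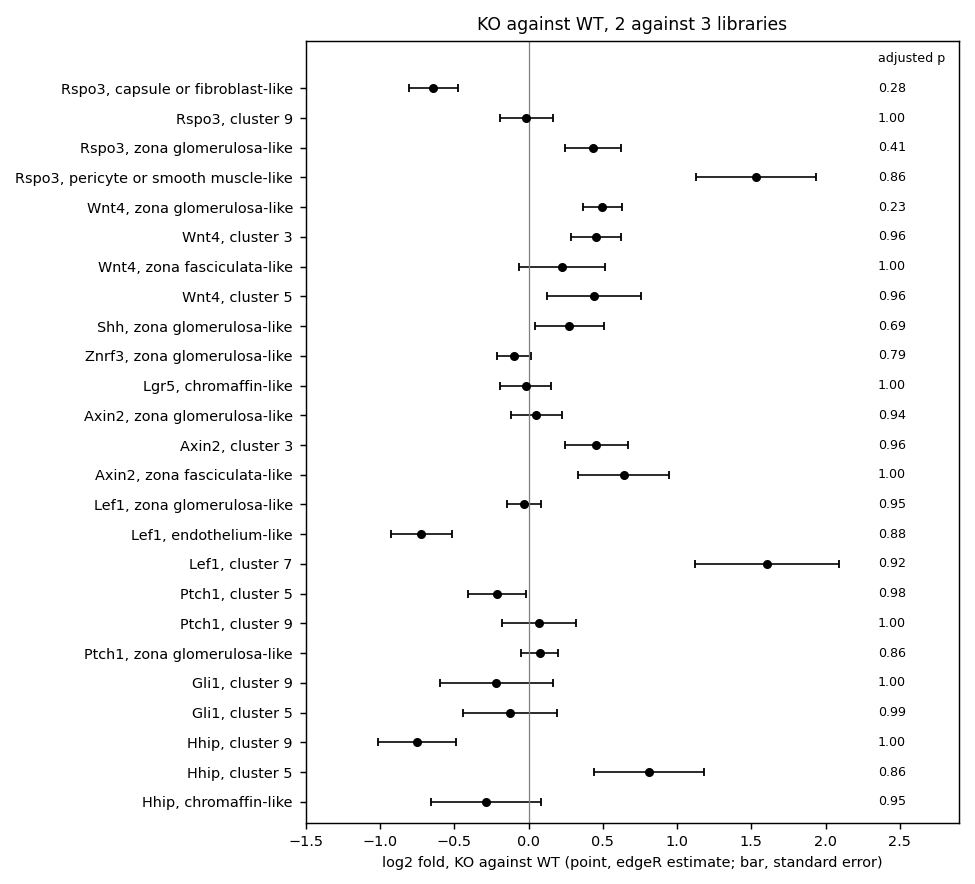
Log2 fold of KO against WT (points, edgeR estimate; bars, standard error) for 25 pairs of gene and class or cluster, with the adjusted p at the right. No adjusted p is below 0.05; the folds of Rspo3 are -0.64 over the capsule or fibroblast-like class and -0.01 in cluster 9, and those of Hhip are -0.75 in cluster 9 and 0.81 in cluster 5.

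Among the receivers of the WNT signal in the zona glomerulosa-like class, Lef1 had a fold of -0.03 ± 0.12 and Znrf3 of -0.10 ± 0.11. The fold of Axin2 there was 0.05 ± 0.17, with its KO libraries on either side of all WT libraries. It ran from -0.37 to 0.37 when 1 library was left out, so its sign is open. Without KO replicate 1 or WT replicate 1, the Cell Ranger term takes up the other 4.0.0 library. The fold then compares KO replicate 2 with WT replicates 2 and 3 alone. Without KO replicate 2 it compares KO replicate 1 with WT replicate 1. Adjusted p for these genes lay between 0.791 and 0.947 (edgeR). Axin2 had 0.46 ± 0.21 in cluster 3 and 0.64 ± 0.31 in zona fasciculata-like nuclei, and neither passed. Lef1 in the endothelium-like class stood at 172 and 127 CPM in KO and 215, 258 and 298 CPM in WT. Its fold there was -0.72 ± 0.21 (unadjusted p = 0.0037, adjusted p = 0.876, edgeR). Both KO libraries were below all WT libraries there, and it passed in the fit without WT replicate 2 (adjusted p = 0.0169). In the same class 2 of 10561 genes passed (0.0189%). Within the class the fold of Lef1 was -0.69 ± 0.29 in cluster 2 and -1.04 ± 0.76 in cluster 6. In cluster 10 it was -0.05 ± 0.27, and none of these passed. Cluster 16, where Lef1 was highest, was not tested. It held 31 of 694 and 18 of 412 nuclei of the class in KO. In WT it held 62 of 1170, 48 of 694 and 49 of 799. The part of this makeup in the fold over the class was not tested.

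Among the hedgehog genes, Shh had a fold of 0.28 ± 0.23 in zona glomerulosa-like nuclei. Gli1 had -0.22 ± 0.38 in the Luzp2 cluster and -0.12 ± 0.31 in the Gata4 cluster. Ptch1 had 0.07 ± 0.25 and -0.21 ± 0.20 in the same pair. None passed, and the standard errors of Gli1 leave folds of either sign possible. Hhip had -0.75 ± 0.26 in the Luzp2 cluster (unadjusted p = 0.0138, adjusted p = 0.999) and 0.81 ± 0.37 in the Gata4 cluster (unadjusted p = 0.0448, adjusted p = 0.862), both by edgeR. The difference between the 2 folds, tested in 1 fit with a term for each library, was -1.57 ± 0.40 (unadjusted p = 0.000228). After adjustment over the 8844 genes of that fit p was 0.153, and 6 genes passed (0.0678%). Without KO replicate 2 the difference was -1.09 with an adjusted p of 1.00, and without WT replicate 3 it was -1.87 with an adjusted p of 0.0197. This test was chosen after the folds were seen.

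Of the 96 other pathway genes 58 could be tested in the zona glomerulosa-like class, 36 had a fold above 0 and 22 below, and 0 passed in either direction by edgeR, with 8 at an unadjusted p under 0.05 (13.8%), where 11.4% of all 11530 genes tested there were. In the capsule or fibroblast-like class 60 were tested, with 32 above 0, 28 below and 0 passed, and in zona fasciculata-like nuclei 53, with 32 above 0, 21 below and 0 passed. No listed gene passed in any class or cluster. The median log2 fold of the listed genes was 0.07 in zona glomerulosa-like nuclei, where that of all genes tested was 0.03. For the 8 of the 10 genes tested there it was 0.18.

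**Figure D4:**
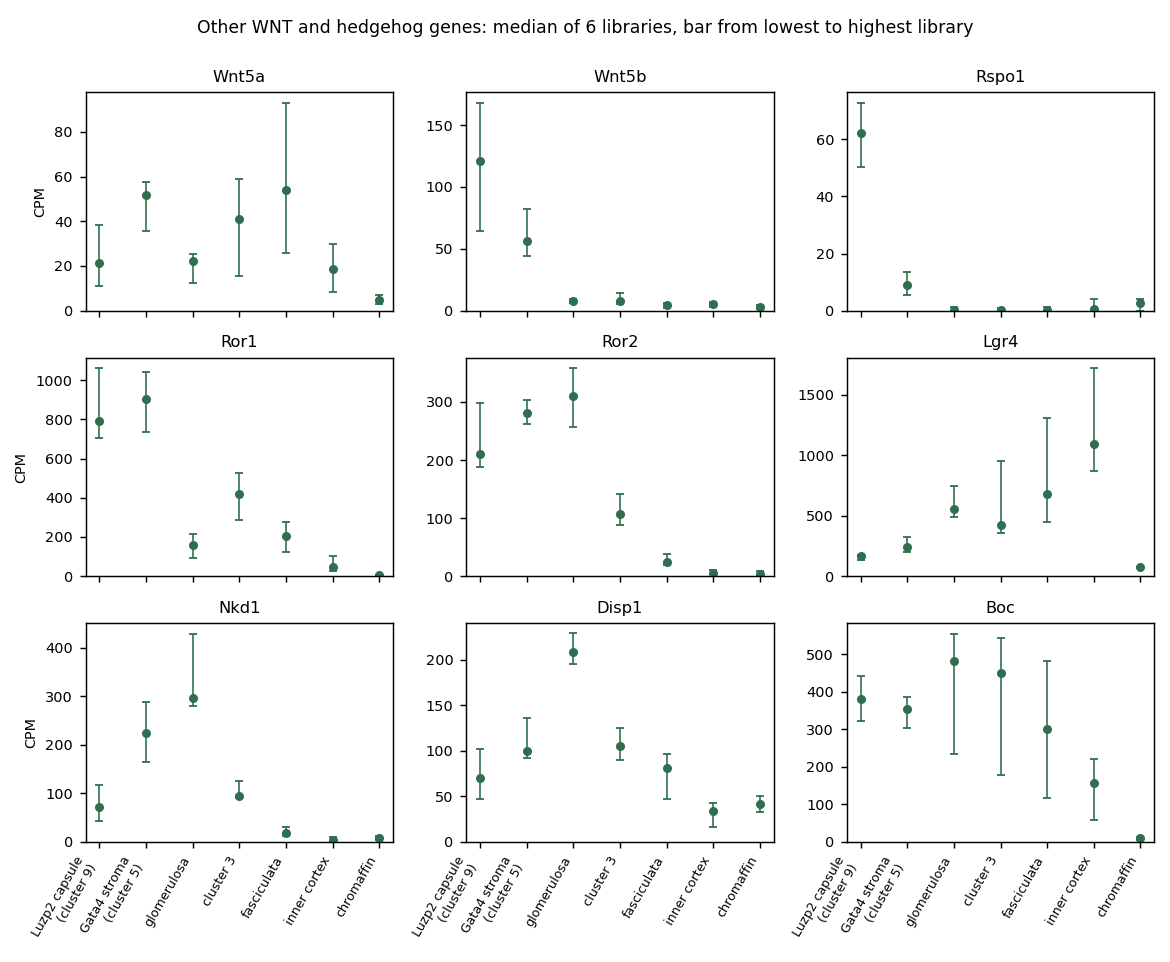
Level (CPM) of 9 other pathway genes in 7 classes and clusters from capsule to medulla; points are medians of 6 libraries and bars run from the lowest to the highest library. Rspo1 and Wnt5b are high in cluster 9, Nkd1 and Disp1 in zona glomerulosa-like nuclei, and Lgr4 has its highest median, 1095, in the inner cortex.

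The other ligands of the list had sources of their own. Rspo1, an R-spondin like Rspo3, had a median of 62.3 CPM (50.2 to 72.8) in the Luzp2 cluster and at most 1.17 CPM in zona glomerulosa-like nuclei. Wnt5b, a ligand of beta-catenin-independent signalling, had 121 CPM (64.6 to 168) in the Luzp2 cluster, 56.4 CPM in the Gata4 cluster and at most 9.36 CPM in the zona glomerulosa-like class. Wnt5a, its close relative, was highest among the cortical zones in zona fasciculata-like nuclei, at 54.1 CPM (25.7 to 93.1), and had 51.8 CPM in the Gata4 cluster. Wls, which carries WNT proteins to the membrane, was spread over stroma, cortex and medulla, with medians from 75.5 CPM in the inner cortex to 221 CPM in the Gata4 cluster. The other hedgehog ligands, Dhh and Ihh, had 2 UMIs each in zona glomerulosa-like nuclei.

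Among the receivers, Ror1, a receptor of Wnt5a, had medians of 793 and 905 CPM in the Luzp2 and Gata4 clusters and 161 CPM in the zona glomerulosa-like class. Ror2, of the same family, had 311 CPM (258 to 358) in the zona glomerulosa-like class and 23.6 CPM (18.8 to 38.7) in zona fasciculata-like nuclei. Disp1, which releases hedgehog ligands from the cells that make them, was highest in the zona glomerulosa-like class, at 209 CPM (195 to 230), where Shh was also highest. Boc, a hedgehog co-receptor, did not follow Gli1: it had 484 CPM (234 to 555) in the zona glomerulosa-like class and 382 CPM (322 to 442) in the Luzp2 cluster, ranges that overlapped. Spop, an adaptor of GLI breakdown, had 681 CPM (566 to 710) in the former. Dkk3, a secreted protein of the Dickkopf family, had 93.1 CPM (75.7 to 128) in the Gata4 cluster and at most 13.6 CPM in zona glomerulosa-like nuclei. Kremen1, a Dickkopf receptor, Tcf7l2, a partner of beta-catenin, and Csnk1a1, a kinase that marks beta-catenin for breakdown, were counted in all of these classes.

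The genes whose level over the 24 clusters was most like that of each of the 10 were sought among 14867 genes by Pearson's r of log2(CPM + 1), as a description, since all clusters share the same 6 libraries. For Gli1 they were Thbs1 (0.93), Adcy2 (0.93) and Islr (0.89). For Rspo3 they were Gm39033 (0.84), Gm26562 and Jph2, for Wnt4 Arid1b (0.87), Gna14 and 6030469F06Rik, and for Shh Gm39094 (0.87), Gm17322 and Gm14344. Lgr5 was most like Pcsk1 (0.86), a prohormone convertase, and Olfm3. Axin2 was most like Wdr34 (0.81), Fuz and Ppp1r16a, Znrf3 like Atp10a (0.82), Tnfrsf19 and Pcsk5, and Lef1 like Chst11 (0.74), Ero1l and Gad1. Ptch1 was most like Cnot10 (0.82), Prickle2 and Ankfn1, and Hhip like Lrfn2 (0.80), Lypd1 and Tgfb3. Among the 10 themselves the pairs with the highest r were Wnt4 and Znrf3 (0.74) and Gli1 and Ptch1 (0.72).

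In the genome (mm10, GENCODE annotation) the 10 genes lie apart, with Rspo3 at chr10:29452416-29535867, Lgr5 at chr10:115450311-115587780 and Gli1 at chr10:127329882-127341974, all 3 on the minus strand of 1 chromosome but far from each other. Wnt4 is at chr4:137277489-137299726, Lef1 at chr3:131110471-131224356, Shh at chr5:28456815-28467256 and Ptch1 at chr13:63508328-63573598. Axin2 (chr11:108920349-108950783) and Znrf3 (chr11:5276324-5444847) share a chromosome, and Hhip is at chr8:79965851-80058006. UMIs are counted near the 3' end, and the sources used here do not say whether intronic reads were included.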

How the data were processed

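Nuclei of mouse adrenal glands were read in 6 libraries. The deposited matrices hold UMI counts per gene and nucleus, not normalized, made by the authors with Cell Ranger, version 4.0.0 or 3.1.0 per the file headers, on mm10 per the submitters' processing notes. The members and lists were chosen with earlier results of these data known. Nuclei with at least 300 genes and under 5% mitochondrial UMIs were kept (48 of 21724 barcodes failed), and 642 likely doublets, the top scores of a doublet simulation, were removed, which left 21034. Clusters (Leiden, resolution 0.8, on 2000 variable genes without the 106 pathway genes) were named where at least 3 markers of a list passed, each at a log2 fold of at least 1 and in at least 10% of nuclei. Cell type levels are given as descriptions, with no test. Shares of nuclei used nuclei thinned to 1000 UMIs, leaving out shallower ones.

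Counts were summed per library, and KO and WT were compared with edgeR 4.0.16 (TMM, filterByExpr, quasi-likelihood test, term for the Cell Ranger version) where each library had at least 20 nuclei, with scanpy 1.11.5 and leidenalg 0.10.2 used for clustering. DESeq2 1.42.0 was an alternative. The fit was tested on simulated data. Beside the 10 genes, the text names the pathway gene of each role with the highest CPM in the capsule or fibroblast-like class and in the zona glomerulosa-like class, and the 3 genes most like each of the 10 among those with at least 10 CPM in a class; 1 of these is not reported here. The same 6 libraries have different depths, and intervals cover counting error only.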

Additional observations from a re-analysis of the deposited data

Results flagged for a closer look

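The unassigned library was compared with no group, and each value here lay above all 3 WT libraries, with an exact 95% Poisson interval of its counts. Lgr5 stood in it at 661 CPM over all nuclei (650 to 673), where WT libraries had 145 to 281 CPM and KO libraries 195 to 271 CPM. In chromaffin-like nuclei Lgr5 had 4436 CPM (4361 to 4512), against 1238 to 2131 CPM in WT. Both chromaffin-like clusters showed it, with 5082 CPM (4986 to 5179) in cluster 7, against 991 to 2247 CPM in WT, and 2902 CPM (2791 to 3016) in cluster 12, against 1580 to 2396 CPM.

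Hhip had 67.7 CPM over all nuclei of the same library (64.2 to 71.3), against 10.9 to 34.3 CPM in WT. In chromaffin-like nuclei it had 270 CPM (252 to 289), against 45.9 to 188 CPM, and in their cluster 7 it had 375 CPM (349 to 402), against 78.5 to 248 CPM. In the capsule or fibroblast-like class it had 265 CPM (244 to 288), against 70.1 to 118 CPM, and in the Gata4 cluster 306 CPM (275 to 339), against 20.6 to 84.7 CPM. The KO libraries were also below the unassigned library in each of these. Why this library stands apart was not tested.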

How the results depend on the processing

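No paired analysis was possible because the labels give the libraries no replicate numbers; the numbers used here are only names. Without 1 library, and with the lone KO library assumed to vary like WT where 1 KO library was left, the genes passing ran from 0 to 57 in the capsule or fibroblast-like class (3 with all 5 libraries; 0 without WT replicate 3), from 0 to 144 in the zona glomerulosa-like class (33; 0 without KO replicate 2), from 0 to 38 in the zona fasciculata-like class (0), from 7 to 255 in all nuclei (0) and from 133 to 440 summed over the other classes and clusters (43), which overlap. In the same order of classes, with no filter on low counts they were 99, 293, 34, 420 and 614. With no term for the Cell Ranger version they were 0 in the capsule or fibroblast-like class, 0 in the zona glomerulosa-like class and 0 in the others. With doublets kept these 3 had 9, 59 and 10, with the unassigned library taken as KO 0, 0 and 21, and as WT 1, 4 and 10. DESeq2 gave 7, 5 and 57 in the capsule or fibroblast-like class, the zona fasciculata-like class and all nuclei, and finer clusters gave 1 in the first. The cause of these moves was not tested. Without KO replicate 1 or WT replicate 1, the Cell Ranger term takes up the other 4.0.0 library. Such a fit in effect compares KO replicate 2 with WT replicates 2 and 3 alone. A fit without KO replicate 2 compares KO replicate 1 with WT replicate 1.

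Of 25 folds of the 10 genes 10 kept their sign in every setting. Taking the unassigned library as KO, the sign turned for Rspo3 (0.0579) and Ptch1 (-0.25) in the Luzp2 cluster, Gli1 in the Gata4 cluster (0.31), Shh (-0.30), Axin2 (-0.24) and Ptch1 (-0.11) in zona glomerulosa-like nuclei, Wnt4 (-0.021) and Axin2 (-0.0934) in cluster 3, and Lgr5 (0.56) and Hhip (0.42) in chromaffin-like nuclei. Taken as WT it turned Hhip in the Gata4 cluster (-0.0623). With doublets kept Rspo3 in the Luzp2 cluster was 0.0883, and with no filter Axin2 in zona glomerulosa-like nuclei was -0.0269. Lef1 in cluster 7, whose large fold without doublets is given in the Results, was -0.0194 with doublets kept. Leaving out 1 library turned the sign, with ranges of -0.11 to 0.0543 for Rspo3, -0.38 to 0.43 for Ptch1 and -1.04 to 0.14 for Gli1 in the Luzp2 cluster, -0.51 to 0.23 for Gli1 in the Gata4 cluster, -0.37 to 0.37 for Axin2, -0.11 to 0.0508 for Lef1 and -0.16 to 0.51 for Shh in zona glomerulosa-like nuclei, -0.17 to 0.62 for Wnt4 in zona fasciculata-like nuclei, and -0.21 to 0.20 for Lgr5 and -1.05 to 0.47 for Hhip in chromaffin-like nuclei. The fold of Wnt4 in zona glomerulosa-like nuclei ran from 0.09 to 0.72 over 15 settings (adjusted p 0.0667 to 1.00, edgeR or DESeq2). The Hhip difference between clusters passed when the unassigned library was taken as KO (-1.59, adjusted p = 0.00974, edgeR). These alternatives, other than the Hhip difference, were listed with the design; that test, the Luzp2 cluster in place of its class, and levels without the unassigned library were chosen after seeing the data. KO replicate 2, with the fewest UMIs, limits the sparse genes Gli1 and Shh.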
